A study of Mus musculus with 24 samples.

Results

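Striatal medium spiny neurons are the projection neurons that make up most of the striatum. The genes taken as their markers were Drd1, Drd2, Adora2a, Ppp1r1b, Penk, Pdyn, Tac1, Rgs9 and Pde10a, 9 genes in all. A probe set, the group of oligonucleotides on the array that reads 1 transcript, was taken as a member where the platform annotation gave it to 1 of these genes, under a current or older symbol, and to no other gene. This rule found 16 of the 45037 probe sets that are not controls, for 8 of the 9 genes. Adora2a, the adenosine receptor of the indirect pathway, had no probe set listed for it and was not measured here. Of the 16 probe sets, 13 had a mean log2 level at or above 4.07, the median over the non-control probe sets, and were among the 21996 probe sets that entered the tests.

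The question was whether what a mouse eats, human or ape food or chow, changes its transcript levels, and the samples used here were from brain. RNA came from the right cerebral hemisphere of 24 female NMR-1 mice, 6 per diet, which began 1 of 4 diets at 8 weeks of age and were fed it for 2 weeks. The fast food diet was bought from a hamburger chain, the cafeteria diet was cooked food from an institute canteen, the chimpanzee diet held fruit, vegetables and yogurt, and the pellets were the standard chow on which all of the mice had been raised. Fast food and cafeteria food together are called the human diets. The labels name no engineered allele and no drug, and each mouse gave 1 Affymetrix array. The labels place 3 mice of each diet in each of 2 processing batches, called batch 1 and batch 2.

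In textbook accounts, medium spiny neurons use GABA and fall into the direct pathway, with the dopamine receptor gene Drd1 and the peptide genes Pdyn and Tac1, and the indirect pathway, with Drd2, Adora2a and Penk. Both kinds express Ppp1r1b, Rgs9 and Pde10a, which act on the G protein and cyclic AMP signals below these receptors. The striatum is a deep part of the hemisphere, so that these transcripts were read from bulk tissue that also holds cortex, hippocampus and other regions. In such samples fewer cells of a type and less RNA per cell cannot be told apart.

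The arrays themselves were not alike. On the 3 diets other than pellets, the 18S ribosomal RNA control had log2 levels of 4.88 to 5.15 in batch 2 and of 5.87 to 6.59 in batch 1, whereas on pellets it lay at 5.92 to 6.43 in batch 2 and at 4.96 to 5.51 in batch 1, the opposite order. The spread of log2 levels over an array showed the same reversal, with an SD of 2.01 to 2.06 in batch 2 and of 1.81 to 2.02 in batch 1 on those 3 diets, against 1.58 to 1.85 in batch 2 and 1.95 to 2.04 in batch 1 on pellets. Pellet batch 2 replicate 1 stood apart, with the lowest SD and a median correlation of 0.893 with the other arrays. The methods leave out 1 pellet array for RNA degradation, but no label names it, so that all 6 pellet arrays were kept. Results are also given without pellet batch 2 replicate 1, and whether it is the degraded array was not settled. Its 3′ control probe sets exceeded the 5′ ones by 0.417 (Actb) and 0.064 (Gapdh) log2. These differences were 0.370 and 0.013 on pellet batch 2 replicate 2, and 0.644 and 0.133 on replicate 3. Whether the labels of the pellet batches are exchanged cannot be settled from the labels, so that they were used as given, and results that change when they are exchanged are given with that value. All 10 general neuron markers and 12 of 14 cortex markers lay above the level for testing, as did 17 of 22 further genes of striatal projection neurons.

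The 100 bases before the transcription start are shown for the 6 genes whose start the RefSeq promoter table lists (build GRCm38.p6), because the levels of these genes are later compared for how they move together. Capitals mark the GC box GGGCGG and the core TGACG of the cyclic AMP response element, read on either strand.
Drd1, chr13:54055659-54055758, minus strand: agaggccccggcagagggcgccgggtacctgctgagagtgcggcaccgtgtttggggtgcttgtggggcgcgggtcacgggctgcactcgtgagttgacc
Drd2, chr9:49340303-49340402, plus strand: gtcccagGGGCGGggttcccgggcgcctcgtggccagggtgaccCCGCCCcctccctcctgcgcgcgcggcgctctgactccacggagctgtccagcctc
Rgs9, chr11:109298182-109298281, minus strand: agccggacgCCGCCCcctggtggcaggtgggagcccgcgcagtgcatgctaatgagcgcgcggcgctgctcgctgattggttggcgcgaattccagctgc
Pde10a, chr17:8801645-8801744, plus strand: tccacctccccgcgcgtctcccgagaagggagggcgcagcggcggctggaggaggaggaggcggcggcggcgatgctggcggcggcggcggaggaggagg
Pdyn, chr2:129699939-129700038, minus strand: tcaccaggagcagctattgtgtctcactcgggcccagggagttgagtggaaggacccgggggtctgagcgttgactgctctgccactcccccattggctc
Tac1, chr6:7554961-7555060, plus strand: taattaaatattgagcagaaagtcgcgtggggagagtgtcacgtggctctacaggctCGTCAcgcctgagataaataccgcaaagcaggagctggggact

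The windows had few of the motifs searched. Tac1 alone held TGACG, 43 bases before its start, a motif present in 10.48% of all 32851 promoter windows of this length. Drd2 held 2 GC boxes and Rgs9 held 1, a motif present in 24.68% of the windows. None of the 6 windows held the full element TGACGTCA, which contains TGACG (1.15% of all windows) or TATAAA (5.56%). For Drd2 and Pde10a the annotated gene begins 5′ of the start used, and where several starts are listed the most 5′ one was taken. Ppp1r1b and Penk were named only.

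The dopamine receptors had levels that overlapped between all 4 diets. For a gene with several probe sets, the one with the highest mean over the 24 arrays is given first. Drd1, the stimulatory receptor of the direct pathway (1456051_at), lay between 7.07 and 7.76 with a median of 7.42 log2 on fast food, between 7.10 and 7.85 with a median of 7.31 on the cafeteria diet, between 7.02 and 7.71 with a median of 7.43 on the chimpanzee diet, and between 6.0 and 7.83 with a median of 7.31 on pellets. The pellet range was the widest, and its low end was pellet batch 2 replicate 1. The other Drd1 probe set, 1455629_at, likewise had its lowest value, 5.31, on that array, against 6.12 to 6.94 on the 18 arrays of the other diets. Drd2, the inhibitory receptor of the indirect pathway (1418950_at), lay between 6.03 and 6.42 with a median of 6.23 on fast food, between 5.68 and 6.37 with a median of 6.21 on the cafeteria diet, between 6.07 and 6.49 with a median of 6.23 on the chimpanzee diet, and between 6.05 and 6.35 with a median of 6.28 on pellets. Its medians differed by less than the range within any diet.

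**Figure D1:**
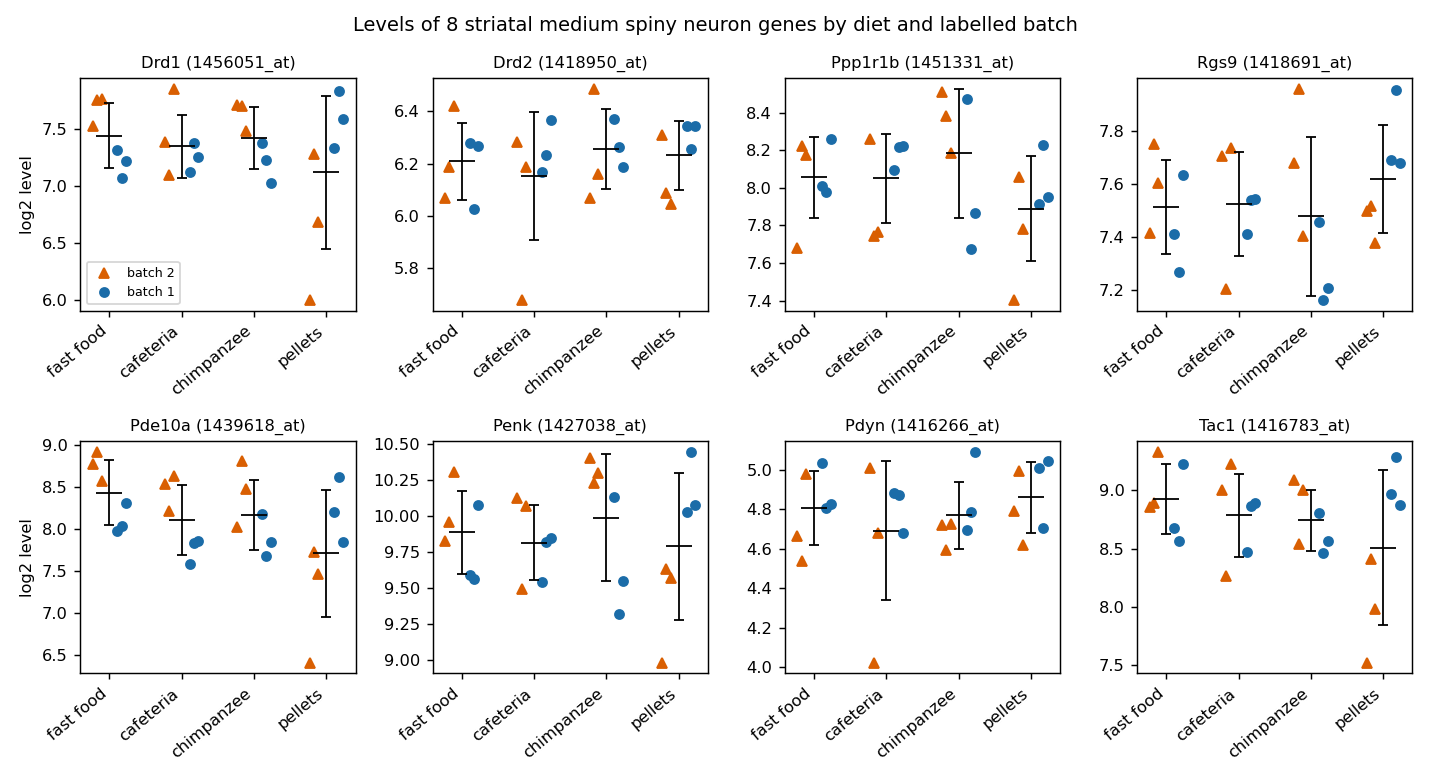
Log2 levels of 8 striatal medium spiny neuron genes (vertical axis, 1 probe set per gene) on 4 diets (horizontal axis), with 1 point per mouse, triangles for batch 2 and circles for batch 1, and with the mean ± SD of each diet in black (n = 6). The diets overlapped for each gene, and on pellets the batch 2 arrays lay below the batch 1 arrays for Drd1, Rgs9, Pde10a, Penk and Tac1.

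The 3 signalling genes also overlapped between the diets. Ppp1r1b encodes DARPP-32, which inhibits protein phosphatase 1 once protein kinase A has phosphorylated it. It (1451331_at) lay between 7.68 and 8.26 with a median of 8.09 on fast food, between 7.74 and 8.26 with a median of 8.16 on the cafeteria diet, between 7.68 and 8.51 with a median of 8.29 on the chimpanzee diet, and between 7.40 and 8.23 with a median of 7.93 on pellets. Rgs9 encodes a GTPase accelerator that shortens the signal of inhibitory G proteins. It (1418691_at) lay between 7.27 and 7.75 with a median of 7.51 on fast food, between 7.20 and 7.73 with a median of 7.54 on the cafeteria diet, between 7.16 and 7.96 with a median of 7.43 on the chimpanzee diet, and between 7.37 and 7.95 with a median of 7.60 on pellets. Its other 2 probe sets, 1426033_at and 1439635_at, had means of 3.05 and 3.03 and were not tested.

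Pde10a encodes the phosphodiesterase that breaks down cyclic nucleotides in medium spiny neurons, and 5 probe sets read it. The brightest, 1439618_at, lay between 7.98 and 8.92 with a median of 8.44 on fast food, between 7.59 and 8.62 with a median of 8.04 on the cafeteria diet, between 7.68 and 8.80 with a median of 8.10 on the chimpanzee diet, and between 6.41 and 8.62 with a median of 7.78 on pellets. Another, 1432490_a_at, ran the other way, and lay between 4.49 and 5.15 with a median of 5.03 on fast food, between 4.68 and 5.24 with a median of 4.97 on the cafeteria diet, between 4.96 and 5.54 with a median of 5.21 on the chimpanzee diet, and between 5.12 and 6.24 with a median of 5.48 on pellets. Its highest value of all, 6.24, was on pellet batch 2 replicate 1, the array on which 1439618_at was lowest. The widest probe set, 1458499_at, had an SD of 0.76 over the 24 arrays, while 1419389_at had an SD of 0.19.

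The peptide genes gave the same picture. Penk, which encodes the enkephalin precursor (1427038_at), lay between 9.56 and 10.31 with a median of 9.90 on fast food, between 9.49 and 10.12 with a median of 9.83 on the cafeteria diet, between 9.32 and 10.40 with a median of 10.18 on the chimpanzee diet, and between 8.98 and 10.45 with a median of 9.83 on pellets. Tac1, the precursor of substance P and neurokinin A (1416783_at), lay between 8.57 and 9.33 with a median of 8.87 on fast food, between 8.27 and 9.22 with a median of 8.88 on the cafeteria diet, between 8.46 and 9.08 with a median of 8.69 on the chimpanzee diet, and between 7.52 and 9.29 with a median of 8.64 on pellets. Both genes had their lowest value on pellet batch 2 replicate 1. Pdyn, the dynorphin precursor (1416266_at), lay between 4.54 and 5.04 with a median of 4.82 on fast food, between 4.02 and 5.01 with a median of 4.77 on the cafeteria diet, between 4.59 and 5.09 with a median of 4.72 on the chimpanzee diet, and between 4.62 and 5.04 with a median of 4.89 on pellets. The other Tac1 probe set, 1431883_at, had a mean of 3.51 and was not tested, and its highest value, 4.36, was on pellet batch 2 replicate 1, where 1416783_at was lowest.

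The central question was whether the human diets differed from the chimpanzee diet. With limma, batch as a term and Benjamini-Hochberg adjustment over all probe sets tested, 0 of the 13 member probe sets passed an adjusted p under 0.05, against 0% of all probe sets. At an unadjusted p under 0.05 there were 1 of the 13 and 418 of the 21996. By the two-way test of the methods, adjusted in the same way, the count was also 0. Over the 8 genes the difference was positive for 3, with a median of -0.02, beside 0.01 over all probe sets. Tac1 differed by 0.11 log2 (SE 0.20, 95% interval -0.31 to 0.53), Penk by -0.14 (SE 0.19, interval -0.53 to 0.25) and Ppp1r1b by -0.13 (SE 0.14, interval -0.41 to 0.15). With 1 probe set per gene, the 95% intervals of all 8 genes held 0. They lay between -0.53, the lower bound of Penk, and 0.60, the upper bound of Pde10a. Those of Drd2 (-0.27 to 0.12), Pdyn (-0.25 to 0.21) and Rgs9 (-0.20 to 0.28) were narrower. Another probe set of Pde10a, 1458499_at, had a wider interval, -0.71 to 0.77. The smallest difference detectable with this number of arrays was not tested. The member with the smallest p was Pde10a 1432490_a_at, at -0.30 (SE 0.14, adjusted p = 1 by limma), which was -0.60 in batch 2 and 0.00 in batch 1.

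The 3 comparisons of single diets other than pellets gave the same counts by limma. In the cafeteria minus chimpanzee comparison 0 of the 13 passed, against 0% of all probe sets, with 0 of the 13 and 321 of all at an unadjusted p under 0.05. In the fast food minus chimpanzee comparison 0 of the 13 passed, against 0% of all, with 0 and 404 at the unadjusted threshold. In the fast food minus cafeteria comparison 0 of the 13 passed, against 0% of all, with 0 and 170. With 1 probe set per gene, the intervals of the 8 genes lay between -0.63 and 0.53, between -0.55 and 0.84, and between -0.38 and 0.90 in these 3 comparisons. The upper end of the last 2 was that of Pde10a. Pde10a 1458499_at had wider intervals, of -0.98 to 0.73, -0.67 to 1.03 and -0.55 to 1.16 in the same order. The methods' two-way test left 0 members in each after adjustment.

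**Figure D2:**
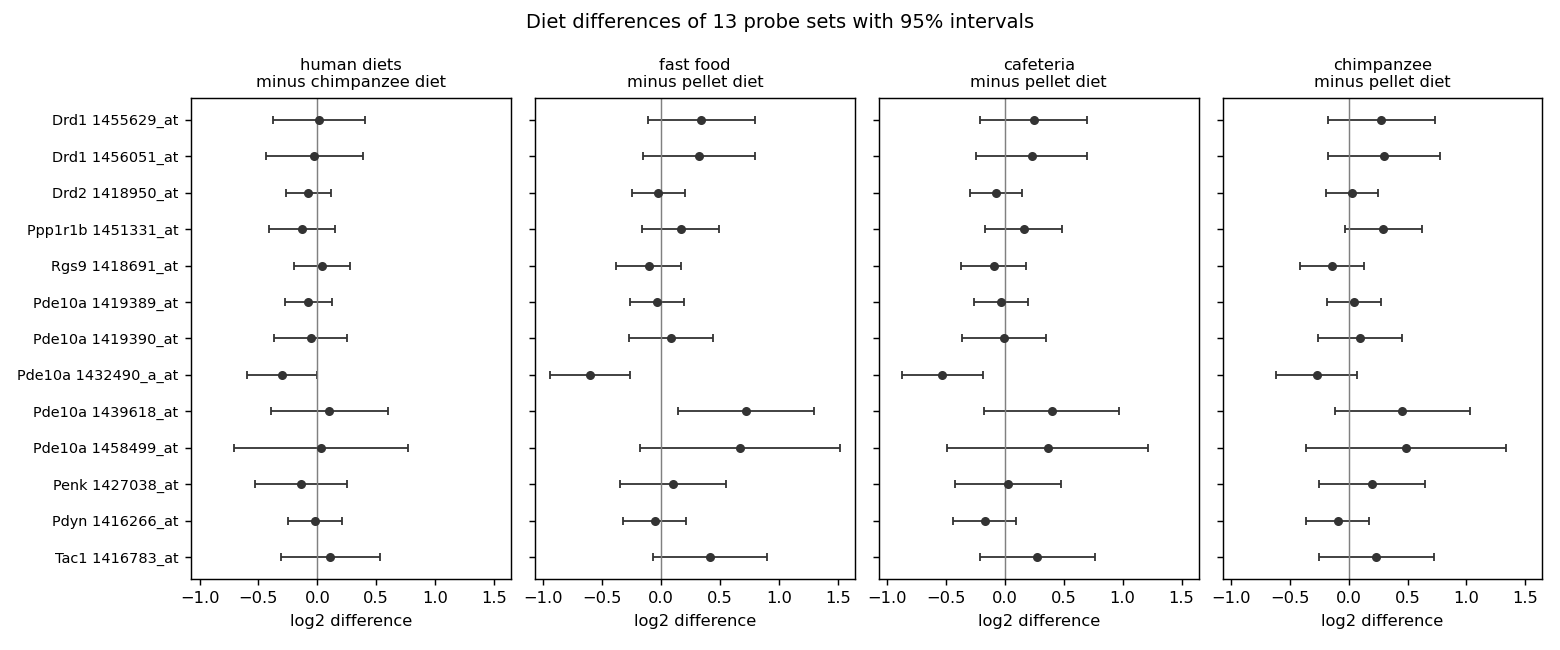
Log2 differences between diets (horizontal axis) of 13 probe sets (vertical axis) in 4 comparisons, with 95% intervals from limma. The intervals of every gene other than Pde10a cross 0, and Pde10a 1432490_a_at and 1439618_at lie on opposite sides of 0 against pellets.

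Against pellets the differences were larger but likewise did not pass with the batches as labelled. In the fast food minus pellet comparison 0 of the 13 passed with limma, against 0.0409% of all probe sets, and 2 of the 13 had an unadjusted p under 0.05, beside 4734 of the 21996. Both were of Pde10a and had opposite signs, 1439618_at at 0.72 (SE 0.28) and 1432490_a_at at -0.60 (SE 0.17), with an adjusted p of 0.224 each by limma. Tac1 was at 0.42 (SE 0.23, adjusted p = 0.255) and Drd1 1456051_at at 0.32 (SE 0.23, adjusted p = 0.331). In the cafeteria minus pellet comparison 0 of the 13 passed, against 0% of all, with 1 and 1204 at the unadjusted threshold. In the chimpanzee minus pellet comparison 0 of the 13 passed, against 0.00455% of all, with 0 and 2099. In the test among the 4 diets 0 of the 13 passed, against 0.0455% of all, with 1 and 1189 at the unadjusted threshold. The methods' two-way test gave 0 members after adjustment in each of these 4 comparisons, but its filter on the diet by batch interaction kept only 5 of the 13 members on fast food, 8 on cafeteria food, 5 on the chimpanzee diet and 5 in the test among the 4 diets. The 3 comparisons share the pellet arrays, and the median of all probe sets was itself 0.17 above pellets on fast food, 0.12 on cafeteria food and 0.14 on the chimpanzee diet, beside 0.13, 0.09 and 0.22 over the 8 genes. These median shifts became 0.01, 0.00 and 0.01 over all probe sets when quantile normalization, which gives the arrays 1 common distribution of levels, was repeated, and still 0 members passed. With the labels of the pellet batches exchanged, both Pde10a probe sets passed on fast food minus pellets, 1439618_at with an adjusted p of 0.0265 and 1432490_a_at with 0.0273 by limma, among 3534 of the 21996 probe sets.

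The differences from pellets were not alike in the labelled batches. Drd1 1456051_at on fast food was 1.02 above pellets in batch 2 and -0.38 against them in batch 1. Tac1 was at 1.05 in batch 2 and at -0.22 in batch 1, and Penk at 0.64 in batch 2 and at -0.44 in batch 1. Pde10a 1458499_at was at 2.06 in batch 2 and at -0.72 in batch 1. Drd2 and Pdyn were closer to 0, Drd2 at 0.08 in batch 2 and at -0.12 in batch 1, and Pdyn at -0.08 in batch 2 and at -0.03 in batch 1. Fitted on batch 2 alone, 7 members passed with limma on fast food, 6 on cafeteria food, 7 on the chimpanzee diet and 6 in the test among the 4 diets, but so did 12984, 11044, 11449 and 9593 of the 21996. Fitted on batch 1 alone, Pde10a 1458499_at was the 1 member that passed, lower than pellets on the chimpanzee diet (-0.83, adjusted p = 0.04) and the cafeteria diet (-0.96, adjusted p = 0.0116), and also in the test among the 4 diets. In these fits 599, 1789 and 556 of the 21996 probe sets passed, in the same order.

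Other lists of marker genes gave 0 calls in the human minus chimpanzee and the fast food minus pellet comparisons. The 17 further striatal genes had a median difference of -0.03 on human diets minus the chimpanzee diet, and 7 of the 17 were positive. Cortex markers were positive for 2 of 12 genes, with a median of -0.12, and hippocampus markers for 1 of 5, with a median of -0.19. Thalamus markers had a positive difference for 12 of 12 genes, with a median of 0.51, and their mean level per array was 6.71 to 7.32 on the human diets and 5.94 to 6.91 on the chimpanzee diet. Cerebellum markers were positive for 5 of 5 genes, with a median of 0.75, and their mean level was 5.45 to 7.93 on the human diets and 5.59 to 6.17 on the chimpanzee diet. The thalamus and cerebellum lists stayed positive for all of these genes after repeated quantile normalization, at medians of 0.46 and 0.70. As deposited, myelin markers were also positive for 9 of 9 genes, with a median of 0.23. Choroid plexus and ependyma markers were so for 6 of 6 (median 0.13) and midbrain dopamine markers for 4 of 5 (median 0.33). General neuron markers were positive for 4 of 10 and astrocyte markers for 5 of 8, beside 54.5% of all features with 1 probe set per gene. The part of these regions and cell types in the members' values was not tested.

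The 2 processing batches were then compared on the 18 arrays of the fast food, cafeteria and chimpanzee diets. In batch 2, 5 of the 13 member probe sets were higher by limma and 0 were lower, against 51.5% of all probe sets called and 42.4% called higher. The members' share was near that of all probe sets, and the difference between the shares was not tested. The 5 were Drd1 1456051_at, Penk, and Pde10a 1419390_at, 1439618_at and 1458499_at. Drd1 1456051_at lay between 7.10 and 7.85 with a median of 7.70 in batch 2 and between 7.02 and 7.38 with a median of 7.23 in batch 1, a difference of 0.36 (SE 0.09, adjusted p = 0.00182). Penk lay between 9.49 and 10.40 with a median of 10.12 in batch 2 and between 9.32 and 10.13 with a median of 9.59 in batch 1, a difference of 0.36 (SE 0.12, adjusted p = 0.0134). Pde10a 1458499_at lay between 7.03 and 7.84 with a median of 7.51 in batch 2 and between 5.96 and 6.98 with a median of 6.43 in batch 1, a difference of 0.98 (SE 0.10, adjusted p = 2.45e-07). The batches overlapped for Drd1 and Penk and did not overlap for this Pde10a probe set.

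The differences of other members did not pass with limma. Drd2 was at -0.07 (SE 0.09, adjusted p = 0.509), Ppp1r1b at 0.01 (SE 0.12, adjusted p = 0.931), Pdyn at -0.19 (SE 0.10, adjusted p = 0.112), Tac1 at 0.19 (SE 0.12, adjusted p = 0.213) and Rgs9 at 0.20 (SE 0.09, adjusted p = 0.0721). The median over all probe sets was 0.15 higher in batch 2, which is close to the median of 0.19 over the 8 genes. Without cafeteria batch 2 replicate 2, 8 members passed, but the share of all probe sets called without that array is not given here. Of the 17 further striatal genes 13 had a positive difference and 7 passed as higher in batch 2, among them Rarb, a retinoic acid receptor, by 0.54 (SE 0.10, adjusted p = 0.000196), Arpp21, a cyclic AMP-regulated phosphoprotein, by 0.54 (SE 0.12, adjusted p = 0.000573), and Scn4b, a sodium channel subunit, by 0.45 (SE 0.09, adjusted p = 0.000295). General neuron markers passed as higher for 10 of 10 genes, myelin markers for 7 of 9 (9 of 9 positive) and astrocyte markers for 6 of 8 (8 of 8 positive), and the mean level of the neuron list was 10.32 to 10.69 in batch 2 and 9.58 to 10.52 in batch 1. After repeated quantile normalization 6 of 10, 5 of 9 and 2 of 8 passed as higher and 0 as lower, while of the striatal genes 1 passed as higher and 2 as lower. As deposited, other lists passed as higher for 4 of 12 genes (cortex), 1 of 5 (hippocampus) and 3 of 12 (thalamus). Olfactory bulb, cerebellum, midbrain dopamine and peptide receptor markers stood at 1 of 7, 1 of 5, 1 of 5 and 0 of 2. Striatal interneuron, microglia, choroid plexus and vessel markers stood at 2 of 4, 2 of 7, 2 of 6 and 1 of 3. Cortex, thalamus, olfactory bulb, choroid plexus and peptide receptor lists each had 1 gene that passed as lower. The part of these cell types in the members' values was not tested.

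The direction of the batch differences depended on the scaling. When quantile normalization was repeated on the probe sets tested, the median over all probe sets became -0.01 and 5 members again passed, of which 2 were higher (Pde10a 1439618_at and 1458499_at) and 3 were lower in batch 2 (Ppp1r1b at -0.28, Drd2 at -0.22 and Pde10a 1419389_at at -0.44). Penk was then at -0.11 (adjusted p = 0.369) and Drd1 1456051_at at 0.12 (adjusted p = 0.287). Of all probe sets 43.6% were called under that scaling. Of all calls, 82.3% were higher in batch 2 as deposited, 85.6% after each array was centred on its median and 49.8% after repeated quantile normalization. Pde10a 1458499_at (0.98 as deposited, 1.00 centred, 0.76 after repeated normalization) and 1439618_at (0.63, 0.65 and 0.31) were higher and passed under each of the 3 scalings.

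**Figure D3:**
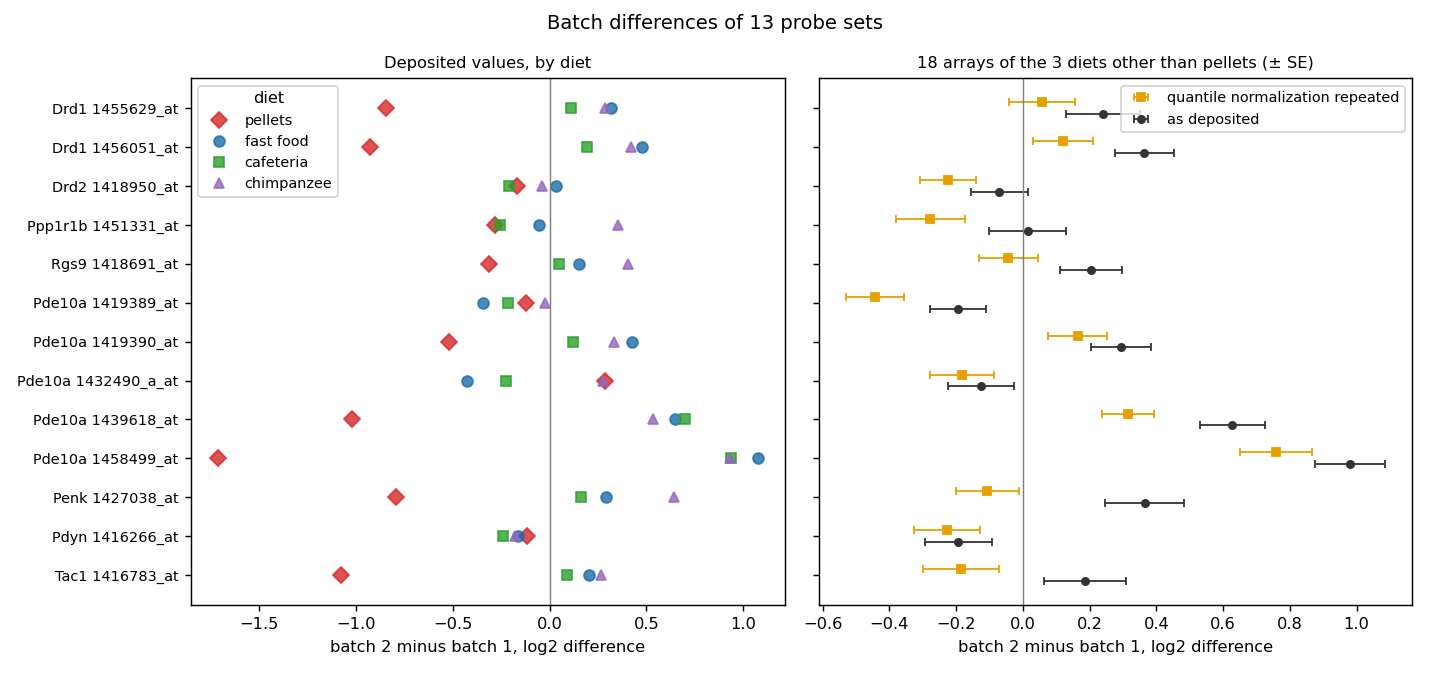
Batch 2 minus batch 1 log2 differences (horizontal axis) of 13 probe sets (vertical axis), on the left by diet from the deposited values (means of 3 arrays each) and on the right over the 18 arrays of the diets other than pellets, as deposited and after repeated quantile normalization (± SE). For Drd1, Rgs9, Penk, Tac1 and Pde10a 1419390_at, 1439618_at and 1458499_at the pellet value lies below those of the other 3 diets, and repeated normalization moves every probe set to the left.

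On pellets the batch difference of Drd1, Rgs9, Penk, Tac1 and Pde10a 1419390_at, 1439618_at and 1458499_at was negative and that on the other diets positive, whereas Drd2, Pdyn and Pde10a 1419389_at were negative on both. Drd1 1456051_at was at 6.0, 7.28 and 6.68 in pellet batch 2 and at 7.33, 7.83 and 7.59 in pellet batch 1. Tac1 was at 7.52, 8.41 and 7.98 in pellet batch 2 and at 8.97, 9.29 and 8.88 in pellet batch 1. Penk was at 8.98, 9.63 and 9.57 in pellet batch 2 and at 10.03, 10.45 and 10.08 in pellet batch 1. For these genes the pellet batches did not overlap. Pde10a 1458499_at was at 4.64, 6.76 and 5.46 in pellet batch 2 and at 7.23, 7.57 and 7.19 in pellet batch 1, again without overlap.

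The difference between the pellet batch difference and that on the other diets was tested in limma with a mean for each diet and batch. Of the 13 members 8 were called with a negative value and 0 with a positive one, against 69.1% of all probe sets called and 56.1% called negative. With the labels of the pellet batches exchanged 0 members passed and the 8 values were positive, among them Tac1 at 0.89 and Penk at 0.43. The share of all probe sets called with exchanged labels is not given here, so that this count is no result about the members. The values were -2.69 for Pde10a 1458499_at (SE 0.38, adjusted p = 1.52e-05), -1.64 for 1439618_at (SE 0.30, adjusted p = 0.000166), -1.29 for Drd1 1456051_at (SE 0.26, adjusted p = 0.000366), -1.26 for Tac1 (SE 0.28, adjusted p = 0.000846) and -1.16 for Penk (SE 0.25, adjusted p = 0.000686). Drd1 1455629_at, Pde10a 1419390_at and Rgs9 also passed, at -1.08, -0.81 and -0.52. Drd2 (-0.10), Ppp1r1b (-0.30), Pdyn (0.08) and Pde10a 1419389_at (0.07) and 1432490_a_at (0.41) did not. Without pellet batch 2 replicate 1 the same number, 8, passed, with Pde10a 1458499_at at -2.20 and Drd1 1456051_at at -0.96. The share of all probe sets called without that array is not given here. After repeated quantile normalization 6 passed, 3 of them negative (Pde10a 1458499_at at -2.20, 1439618_at at -0.82 and Drd1 1456051_at at -0.60) and 3 positive (Pde10a 1419389_at at 0.85, 1432490_a_at at 0.82 and Ppp1r1b at 0.55), while Penk was at 0.00. Of all probe sets 51.6% were called in the interaction under that scaling. Of the 17 further striatal genes 13 passed with a negative value as deposited, led by Rarb (-1.76), Bcl11b, a transcription factor of these neurons (-1.25), and Arpp21 (-1.20), and 10 of 10 general neuron markers did so. After repeated quantile normalization 1 of the 17 passed with a negative and 1 with a positive value, and 5 of the 10 neuron markers passed with a negative one. The 18S control and the array SD changed order in the same way on pellets, as given above. What sets the pellet arrays apart was not tested.

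Whether the members moved together from mouse to mouse was asked of the deviations of each array from the mean of its diet and batch, with 1 probe set per gene. The 8 genes gave 28 pairs, and 27 of the 28 Pearson correlations were positive, with a median r of 0.50, beside a median of 0.18 and an upper decile of 0.77 over all pairs of features. Penk and Tac1, peptide genes that mark different classes of medium spiny neuron, had the highest correlation. It was r = 0.876 and rho = 0.885 over 24 arrays (two-sided permutation test within diet and batch, p = 2e-05 for each, adjusted over the 28 pairs to 0.00056), r = 0.892 without the 2 arrays farthest from the median of Penk, and 0.908 within batch 2 and 0.885 within batch 1. Ppp1r1b and Penk followed with r = 0.834 and rho = 0.82 (permutation test, p = 5e-05 for r and 9e-05 for rho, adjusted p = 0.0007 and 0.0013), 0.785 without the 2 farthest arrays, and 0.725 within batch 2 and 0.962 within batch 1. In all, 10 of the 28 pairs passed an adjusted p under 0.05 on r and 12 on rho. The share of all feature pairs that would pass was not computed, and these 2 pairs alone lay above the upper decile of all feature pairs.

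The other pairs were lower. Drd1 and Tac1, both of the direct pathway, had r = 0.716 and rho = 0.657 (permutation test, p = 0.0052 and 0.0069, adjusted p = 0.027 and 0.021), and 0.618 without the 2 farthest arrays. Drd2 and Rgs9 had r = 0.707 and rho = 0.643 (permutation test, p = 0.013 and 0.012, adjusted p = 0.035 and 0.029), and 0.539 without the 2 farthest. Drd1 and Drd2, the receptors of the 2 pathways, had r = 0.153 and rho = 0.243 over the 24 arrays (permutation test, p = 0.6 and 0.35, adjusted p = 0.7 and 0.44), and r = 0.479 without pellet batch 2 replicate 1, on which Drd1 lay 0.65 below and Drd2 0.16 above the mean of their diet and batch. The lowest r of the 28 was -0.08, of Pdyn and Pde10a. Without cafeteria batch 2 replicate 2 the lowest r was -0.33 and 20 of the 28 were positive, and without both that array and pellet batch 2 replicate 1 the lowest was -0.48 and 23 were positive.

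The number of pairs that passed changed when arrays were left out and with the scaling. How much of the change comes from having fewer arrays was not tested. Cafeteria batch 2 replicate 2 lay below the mean of its diet and batch for 8 of 8 genes, by 0.37 on average. Without it 3 pairs passed on r and 3 on rho, with a median r of 0.39. Without pellet batch 2 replicate 1 the counts were 6 on r and 8 on rho, with a median r of 0.49, and without both arrays they were 4 and 6, with a median r of 0.37. Without the 6 pellet arrays 1 pair passed on r and 5 on rho, with a median r of 0.51. After repeated quantile normalization 0 pairs passed on r or rho, with a median r of 0.41 and 25 of 28 positive beside a median of 0.00 over all pairs of features, and Penk and Tac1 then had r = 0.855 and rho = 0.784 (permutation test, unadjusted p = 0.0032, adjusted p = 0.055).

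**Figure D4:**
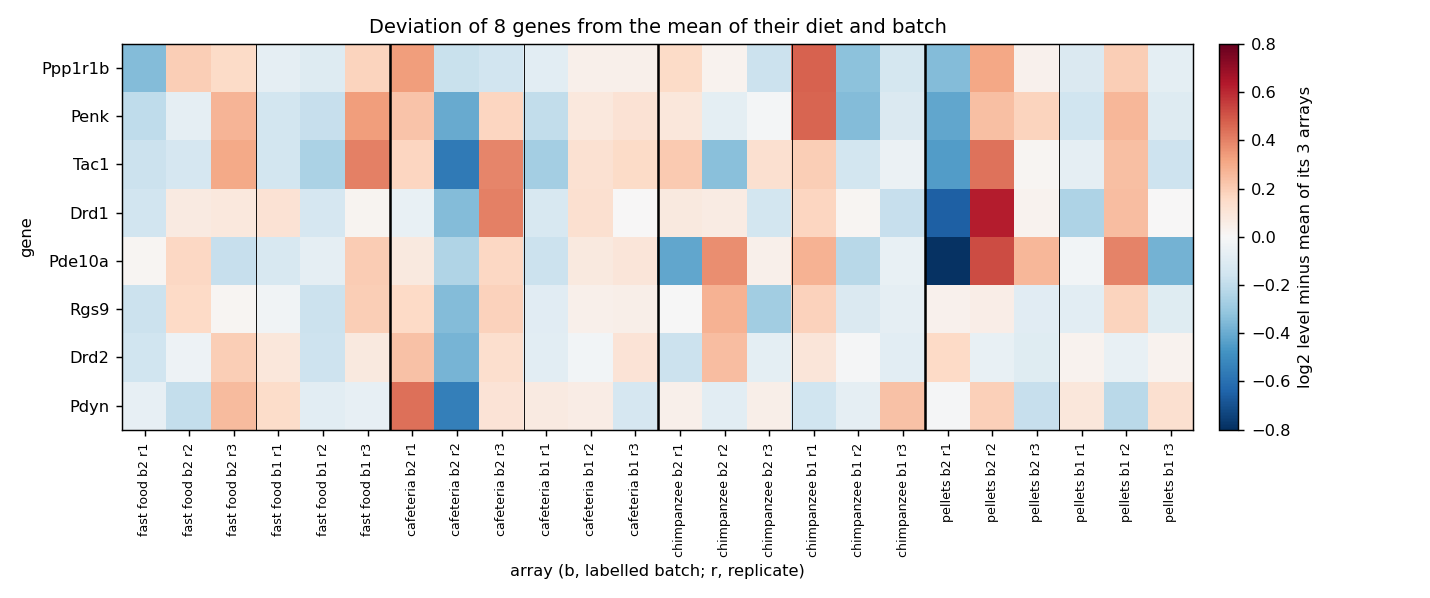
Deviation of the log2 level of 8 genes (vertical axis) from the mean of the 3 arrays of the same diet and batch (colour, red above and blue below), for 24 arrays (horizontal axis). Cafeteria batch 2 replicate 2 is blue for 8 of 8 genes, and pellet batch 2 replicate 1 is blue for 6 of 8.

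The genes whose deviations were most like the mean standardised deviation of the 8 members were looked up among 11637 other genes, as a description. The first 10 by r over the 24 arrays were Adcy5 (0.933), Gng7 (0.915), Gpr6 (0.855), E2f1 (0.848), Rasd2 (0.841), Dclk3 (0.835), Ankrd63 (0.821), Wdr78 (0.781), Pde1b (0.775) and Bcr (0.772). Adcy5 encodes the adenylyl cyclase of striatal neurons, Gng7 a G protein gamma subunit that works with it, Rasd2 the striatal GTPase Rhes, and Pde1b a calmodulin-dependent phosphodiesterase. Adcy5 and Gng7 kept rank 1 and rank 2 without pellet batch 2 replicate 1, without the pellet arrays and after repeated quantile normalization, with r of 0.919 and 0.845 in the last. Gpr6, an orphan receptor of the indirect pathway, was at rank 3 as deposited and at rank 82 after repeated normalization, where its r was 0.544.

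Over the 17 further striatal genes the median r with the members was 0.68, beside 0.32 over all features. It was 0.63 without the pellet arrays, where 17 of 17 were positive and the median of all features was 0.18, and 0.59 after repeated quantile normalization, where that of all features was -0.01. Cortex markers had medians of 0.32 as deposited and -0.14 after repeated normalization, general neuron markers 0.41 and -0.21, and thalamus markers 0.23 and 0.21. Microglia markers were at 0.59 and 0.40. Within the striatal list Isl1 (-0.11) and Actn2 (-0.03) were not above 0 over the 24 arrays. These correlations run over arrays that share a scaling, and genes are not independent replicates.

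**Figure D5:**
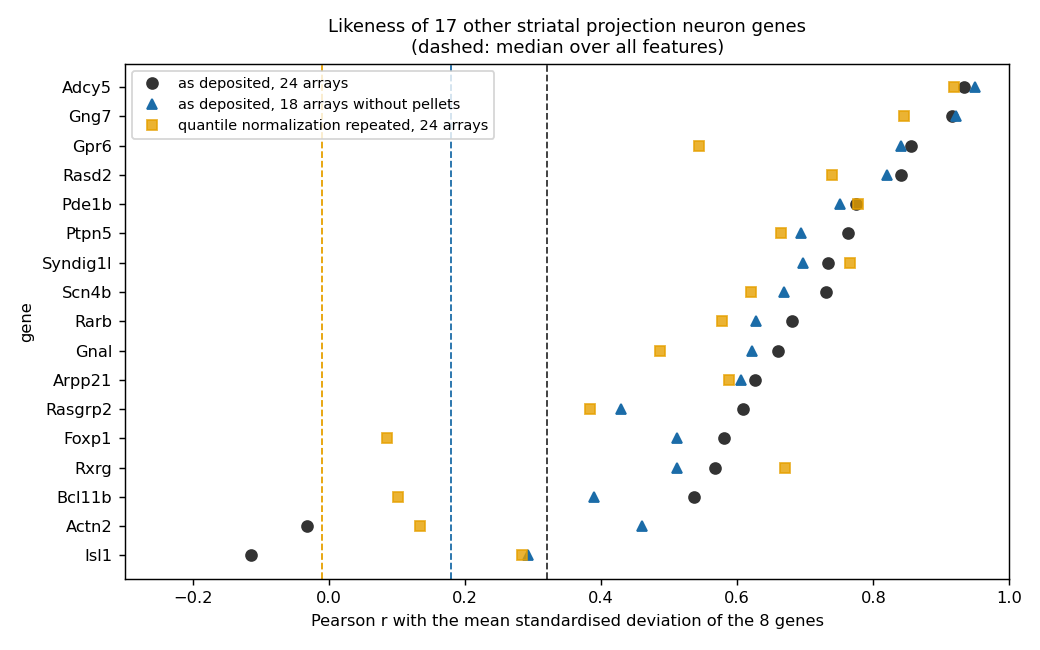
Pearson r (horizontal axis) of 17 other genes of striatal projection neurons (vertical axis) with the mean standardised deviation of the 8 members, as deposited over 24 arrays (circles), without the pellet arrays (triangles) and after repeated quantile normalization (squares). Dashed lines give the median over all features, at 0.32, 0.18 and -0.01, and Adcy5 and Gng7 lead under each setting.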

How the data were processed

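The deposited table gives the authors' log2 level of each of 45101 probe sets on 24 arrays. Per the methods they were computed by the authors with the “rma” procedure of the “affy” package, which takes logs and applies quantile normalization, although the 24 deposited columns do not share 1 distribution. Versions are not given in the sources used here. The labels gave the diet, the batch and the replicate number. The members and the lists of marker genes were chosen with earlier results of these data known.

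Of the probe sets, 64 are controls. By the platform annotation 34945 of the others have 1 gene, 932 have several (left out) and 9160 have none listed, and 34754 of the 34945 were found in the RefSeq gene table (GRCm38.p6). Probe sets with a mean log2 level under 4.07 were left out, which kept 21996, with 11645 genes. They were fitted with limma 3.58.1 in R 4.3.3, with diet and batch as terms and 1 estimate of the spread from 24 arrays, and called at an adjusted p (Benjamini-Hochberg) under 0.05. The batch comparison used 18 arrays with diet as a term. The test was tried on simulated data. Co-variation used residuals from diet by batch means and 100000 permutations within diet and batch. Adora2a had no probe set, so that 28 pairs were tested in place of the 36 planned. Promoter motifs were chosen after the files were seen. All members are named, with, by rule, the 3 striatal list genes of largest difference among those that passed, and the 10 genes of highest likeness. Other lists are given by count. Same-numbered arrays correlated at -0.47 to 0.44. These values were not compared with those of arrays of other numbers, so that whether replicate numbers pair the mice was not settled. Per the methods littermates were spread evenly over the diets, but the labels name no litter. Alternatives covered the filter, scaling, array weights, the spread, the batch term, 1 probe set per gene, each batch alone, exchanged pellet batch labels, the methods' two-way test, a block of batch and replicate number, and each array left out. Plots came from matplotlib 3.10.9 and Python 3.11.15. Array medians lay between 4.02 and 4.32 log2. Precision is limited by how many arrays there are. The p-values rest on the spread between arrays of this study, 1 per mouse, in which mouse and array differences are not separated.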

Additional observations from a re-analysis of the deposited data

Results flagged for a closer look

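Cafeteria batch 2 replicate 2 lay far from the other 5 cafeteria arrays for 2 genes. Pdyn was at 4.02 log2 there, with the nearest other cafeteria array at 4.68, and Drd2 was at 5.68, with the nearest at 6.17. These were 2 of 52 groups of 6 arrays tested, and chance flags about 1 in 20 groups.

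For 8 member probe sets the batch difference on pellets differed from that on the other 3 diets by limma's interaction test. Of all probe sets, 69.1% were called in this test and 56.1% were called negative. The log2 values, pellets minus the other diets, were -2.69 (Pde10a 1458499_at), -1.64 (Pde10a 1439618_at), -1.29 (Drd1 1456051_at), -1.26 (Tac1), -1.16 (Penk), -1.08 (Drd1 1455629_at), -0.81 (Pde10a 1419390_at) and -0.52 (Rgs9). With the labels of the pellet batches exchanged 0 members passed and these 8 values were positive, and the labels do not settle whether they are exchanged. The share of all probe sets called with exchanged labels is not given here.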

How the results depend on the processing

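In the 4 comparisons among the fast food, cafeteria and chimpanzee diets, 0 members passed under each of 37 settings. Against pellets, members passed in 3 kinds of setting. Batch 2 alone gave 7 (fast food), 6 (cafeteria), 7 (chimpanzee) and 6 (4 diets), and batch 1 alone gave 1 for cafeteria, 1 for chimpanzee and 1 for the 4 diets. Of the 21996 probe sets, 12984, 11044, 11449 and 9593 passed in batch 2 alone, and 1789, 599 and 556 in batch 1 alone. Exchanging the pellet batch labels gave 2 for fast food (3534 probe sets in all). The methods' two-way test at p under 0.01 gave 1 for the 4 diets, where 5 members remained after its interaction filter, and 0 after adjustment. Of all probe sets 9508 remained after that filter, of which 205 had a p under 0.01 and 0 passed after adjustment. Leaving out 1 array at a time gave 0 to 0 in each diet comparison.

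The batch count of 5 was 3 with 1 probe set per gene (8 probe sets tested), 9 with array weights, and 5 to 8 with 1 array left out. The interaction count of 8 was 5 with 1 probe set per gene, 0 with exchanged labels, and 7 to 9 with 1 array left out. As deposited, 51.5% of all probe sets were called in the batch comparison and 69.1% in the interaction. The shares of all probe sets under these other settings are not given here, so that these changes in count are no result about the members. With exchanged labels the interaction values turned positive, at 0.89 (Tac1), 0.73, 0.39 and 0.23 (Pde10a 1458499_at, 1439618_at and 1419390_at), 0.60 and 0.56 (Drd1 1455629_at and 1456051_at), 0.43 (Penk) and 0.11 (Rgs9), and repeated quantile normalization turned Rgs9 to 0.26 and the batch value of Penk to -0.11. Without pellet batch 1 replicate 2, Rgs9 was at -0.43 and no longer passed (adjusted p = 0.0688).

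With the mean of all probe sets of a gene in place of 1 probe set, the median r was 0.37 and 7 pairs passed on r and 7 on rho. The count of 10 correlated pairs was 1 without pellets. By alternatives chosen after seeing the data it was 3 without cafeteria batch 2 replicate 2, 6 without pellet batch 2 replicate 1, 4 without both, and 0 after repeated quantile normalization with or without pellet batch 2 replicate 1. The median r was 0.51 without pellets, beside 0.15 over all pairs of features. After repeated normalization it was 0.41 with pellet batch 2 replicate 1 and 0.50 without it, beside 0.00 over all pairs in both. Of the 28 pairs 25 and 28 were then positive. The causes were not tested. With a replicate block of batch and number, 0 members passed in each diet comparison and 8 in the interaction, which changed no call. The batch comparison allows no such block, because the block lies within the batch.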
